A study of Homo sapiens with 6 samples.

Results

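The proteasome genes described here are the protein-coding genes whose symbol is PSM, a letter from A to G and a number, each read from a row named by its Entrez gene ID. PSMB8, PSMB9 and PSMB10, the catalytic subunits of the immunoproteasome, and PSMB11 and PSMA8, the subunits of thymus and testis, were left out by this rule. There were 43 such genes among the 27434 rows of the gene tables. None shared a row with another gene, and 43 of the 43 passed the filter on low counts, which left 13034 genes for testing. By role they were 7 subunits of the 20S alpha ring, 7 of the 20S beta ring, 6 ATPases and 11 other subunits of the 19S particle, 3 chaperones of 19S assembly, 4 chaperones of 20S assembly, and 5 genes for activators and an inhibitor. The rule uses symbols and gene type only, but it was chosen with earlier results of these data known.

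The cells were HT-29, a human colorectal adenocarcinoma line that grows as an epithelium. They were transfected with an siRNA pool at 10 nM, by the labels (the methods of the study give another concentration), and polyA RNA was sequenced after 48 h. The 3 groups were siNT (a nontargeting control pool), siHOXA-AS3 and siHOXB-AS3, with 2 libraries each, so the controls carried transfection reagent and siRNA too. HOXA-AS3 and HOXB-AS3 are long noncoding RNAs transcribed antisense to HOX genes in the middle of the HOXA and HOXB clusters, and their knockdown (KD) was set against siNT to find genes that depend on them. A single cell line and 1 pool per target were used. The labels do not say whether the 2 libraries of a group came from separate cultures, so the p-values measure the spread between libraries, which may be technical.

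The proteasome degrades proteins that carry ubiquitin chains. Its 20S core is a barrel of stacked alpha and beta rings, in which the beta subunits PSMB6, PSMB7 and PSMB5 hold the caspase-like, trypsin-like and chymotrypsin-like active sites. The 19S particle caps the barrel: its PSMC ATPases unfold substrates and open the gate formed by the alpha ring, and its PSMD subunits bind ubiquitin and remove it. Cells make the subunits in fixed proportions and raise their genes together when the proteasome is impaired, through the transcription factor NFE2L1 (NRF1). The intestinal epithelium renews fast and, like other dividing tissue, needs the constitutive particle.

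Libraries held 15998518 to 26263938 expected counts, of which the 43 genes took 0.611 to 0.715%. Their own expected counts ran from 247 to 14285 per gene and library, with a median of 2380. Levels are given as TPM (scaled for gene length and library size) and differences as log2 fold changes of counts. Counts of genes whose libraries did not overlap between groups were made in log2 CPM (counts scaled to library size), which can order libraries otherwise than TPM. HOXB-AS3 itself was at 8.37 and 11.2 TPM in siHOXB-AS3, against 39.6 and 41.3 in siNT and 36.0 and 41.8 in siHOXA-AS3. The log2 fold change of HOXB-AS3 after its own KD was -1.96 (standard error (SE) 0.248), with an adjusted p of 0.0678 in edgeR over 6 libraries. HOXA-AS3 had 38 and 18 counts in siNT, 12 and 12 in siHOXA-AS3 and 30 and 22 in siHOXB-AS3. For HOXA-AS3 the log2 fold change after its own KD was -1.09 (SE 0.403, adjusted p = 0.711 in edgeR). The epithelial markers EPCAM, CDH1, KRT8, KRT18 and KRT20 were present, CDX1 had at most 2 counts in a library and CDX2 was at 0.50 TPM or less. Of 9 tested colon epithelial markers 7 had a log2 fold change below 0 after HOXB-AS3 KD, and edgeR called 1, CEACAM5, at -1.63 (SE 0.154, adjusted p = 0.0492). The list of 10 summed to 6576 to 6817 TPM in siNT, 5770 to 8034 in siHOXA-AS3 and 5834 to 5883 in siHOXB-AS3, and its part in the results below was not tested. Of 5 fibroblast markers, 3 were at 0 in every library and the list summed to 0.07 to 0.10 TPM. Among the leukocyte markers PTPRC had 0 to 4 counts in a library, and the list summed to 14.4 to 23.99 TPM, mostly from CD68, at 16.01 TPM in siNT replicate 1.

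The siHOXA-AS3 libraries stood apart from each other. Over the 43 genes the SD of the difference between the replicates of a group was 0.183 on the log2 scale in siNT, 0.557 in siHOXA-AS3 and 0.130 in siHOXB-AS3, and 3 genes, 6.98%, differed at least 2-fold between the siHOXA-AS3 libraries against 0 in each other group. Over all genes tested the SD was 0.726 in siHOXA-AS3 and 13.4% of genes differed at least 2-fold, so the spread was not particular to the proteasome genes. This difference followed the GC content of the transcripts, over all genes (Pearson r = -0.735) as over the 43. Across the 43 genes, which share libraries and are not independent replicates, Pearson r between GC content and replicate 2 minus replicate 1 was -0.815 in siHOXA-AS3, 0.732 in siNT and -0.313 in siHOXB-AS3. Transcript GC content ran from 39.5% in PSMA2 to 58.8% in PSMG3, with a median of 47.3%, against 49.7% over 12748 tested genes with a value. In a fit over 6 libraries the siHOXA-AS3 spread also enters the test of HOXB-AS3 KD against siNT, so that comparison is given also from its own 4 libraries.

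**Figure D1:**
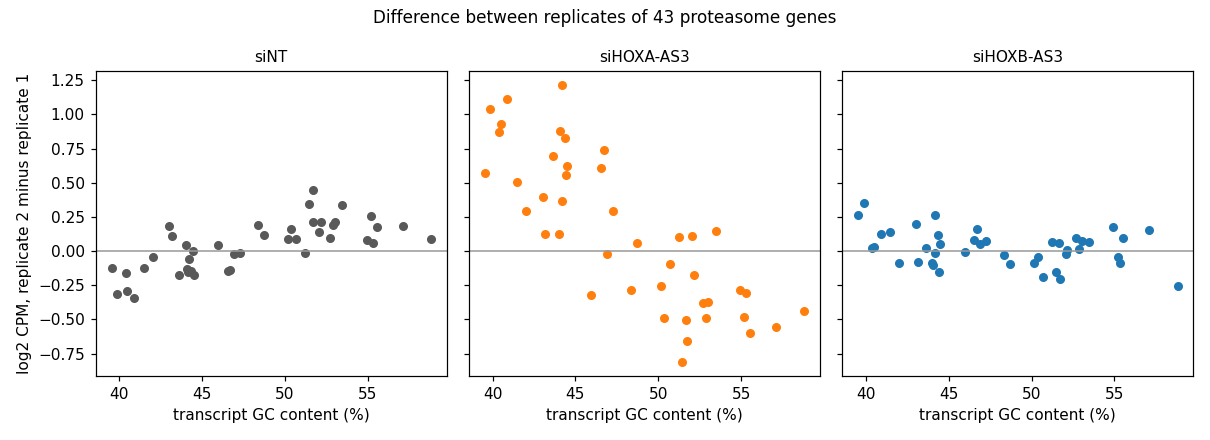
Difference in log2 CPM (counts scaled to library size) between replicate 2 and replicate 1 of each group (vertical axis, log2 units) against transcript GC content (horizontal axis, percent). Each point is 1 of 43 proteasome genes. The points of siHOXA-AS3 fall steeply with GC content (r = -0.815), those of siNT rise (r = 0.732) and those of siHOXB-AS3 lie nearest to 0.

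After HOXB-AS3 KD most proteasome genes stood a little higher than in siNT. The 31 subunits of the 20S and 19S particles had a summed level 11.6% above siNT, and the 12 chaperone, activator and inhibitor genes one that differed by -2.86% (exact permutation p = 0.333 for each). The difference between these groups of genes was not tested. Summed TPM weighs the genes with high levels most. PSMB3 stood at 806 and 890 TPM in siNT and 1062 and 1120 in siHOXB-AS3, and PSMA1 at 599 and 549 in siNT and 704 and 702 in siHOXB-AS3. Of the 31 subunits, 27 had a log2 fold change above 0 and 4 below. The 43 genes summed to 6806 and 6830 TPM in siNT, 6360 and 6874 in siHOXA-AS3, and 7400 and 7478 in siHOXB-AS3. Both siHOXB-AS3 libraries lay above both libraries of each other group, and the siHOXA-AS3 libraries lay on either side of siNT. The mean in siHOXB-AS3, 7439 ± 55.1 TPM (SD, n = 2), was 9.11% above the 6818 ± 17.4 TPM (SD, n = 2) of siNT, with p = 0.333 in a two-sided exact permutation test, the smallest p that 2 against 2 allows. For siHOXA-AS3, at 6617 ± 364 TPM (SD, n = 2), the difference from siNT was -2.94% (exact permutation p = 1.0). In bulk RNA, more cells that express a gene and more RNA per cell cannot be told apart.

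On the log2 CPM scale, averaged over the 43 genes and relative to the siNT mean, the libraries stood at -0.02 and 0.02 in siNT, -0.12 and 0.01 in siHOXA-AS3, and 0.15 and 0.18 in siHOXB-AS3. With the GC trend of each library removed, the siHOXA-AS3 libraries stood at -0.05 and -0.04, and the siHOXB-AS3 libraries at 0.15 and 0.17. The mean over all genes tested was between -0.05 and 0.00 in all 6 libraries. The mean difference of siHOXB-AS3 from siNT was 0.16 (exact permutation p = 0.333). That of siHOXA-AS3 was -0.06 (exact permutation p = 0.667).

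No proteasome gene passed an adjusted p of 0.05 in edgeR over 6 libraries in any of the 3 comparisons, and none changed 2-fold. For HOXB-AS3 KD against siNT the share of all genes that passed was 0.0614%. Of the 43 genes, 34 had a log2 fold change above 0 and 9 below, where 49.3% of all genes were above. The median was 0.20 over the 43 genes and -0.01 over all genes. In log2 CPM, both siHOXB-AS3 libraries lay above both siNT libraries for 30 of the 43 genes, 69.8%, against 30.9% of all genes. They lay below both siNT libraries for 5, 11.6%, against 30.9%. In TPM, PSMA3, PSMA4, PSMA5, PSMB5, PSMC3, PSMD10, PSMD12 and PSMG2 of the 30 overlapped with siNT. PSMB6, PSMD7, PSMD9, PSME1 and PSME2 lay below siNT in TPM, though not in log2 CPM. The share of all genes in TPM was not counted. An unadjusted p under 0.05 was given to 3 genes that were higher, PSMB3, PSMC2 and PSMD1, which is 6.98% against 4.42% of all genes, and to 0 that were lower, against 7.75%. DESeq2 called 0 of the 43 (3 at an unadjusted p under 0.05), against 1.88% of 17680 genes. That set of 17680 was not filtered on low counts. Limma on log2(FPKM + 0.1) called 0 of the 43 (1 at that p), against 0.0921% of the 13034 genes.

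With only the 4 libraries of siNT and siHOXB-AS3 in the fit, edgeR called 16 proteasome genes higher, 37.2% against 11.2% of all genes, and 2 lower, 4.65% against 12.1%. The genes that rose in this fit were PSMA1, PSMA2, PSMA3 and PSMA6 of the alpha ring, PSMB3, PSMB4 and PSMB7 of the beta ring, PSMC1, PSMC2 and PSMC6 of the ATPase ring, PSMD1, PSMD12 and PSMD14 of the other 19S subunits, the activators PSME3 and PSME4 and the chaperone PSMG1. Those that fell were PSMD2 and PSMD5. With the GC trend removed as well, the fit called 23 higher, 53.5% against 17.7% of all genes, and 3 lower, 6.98% against 16.6%. Over 6 libraries with the GC trend removed it called 6 higher, PSMA1, PSMB3, PSMC6, PSMD1, PSMD14 and PSME4, which is 14% against 6.15% of all genes, and 1 lower, PSMD5, 2.33% against 7.83%. How much of the difference between these counts comes from GC content was not tested.

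**Figure D2:**
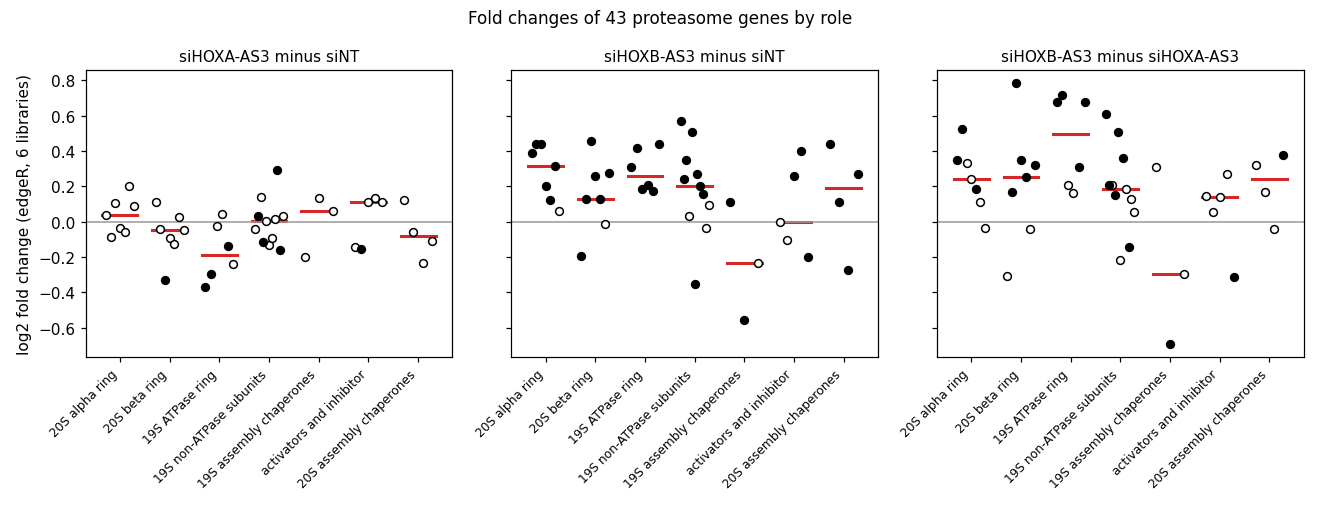
Log2 fold change (vertical axis, edgeR over 6 libraries) of each of the 43 proteasome genes by role, in the 3 comparisons. Filled points are genes whose libraries did not overlap between the groups in log2 CPM, open points those that overlapped, and red lines medians. In siHOXB-AS3 minus siNT 6 of 6 ATPase genes are filled and above 0, while the 19S assembly chaperones have a median of -0.24.

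Promoters are shown for the 4 genes with the largest fold changes in either direction after HOXB-AS3 KD, PSMD1, PSMD5, PSMD14 and PSMB3, and for PSMC2. Higher members can thus be set beside PSMD5, the lowest. PSMC2, at 0.42, ranked below PSMA2, PSMA3, PSMC6 and PSMG1, each at 0.44, whose promoters are not shown. RefSeq starts on GRCh38.p14 gave a promoter for 37 of the 43 genes. Each line holds the 150 bases before the start, 5′ to 3′ on the strand of the gene. Capitals mark TGACNNNGC (the core of the antioxidant response element, which NFE2L1 and NFE2L2 bind with small MAF proteins), CCGGAAG (an ETS factor site) and CCAAT (the box bound by NF-Y), searched on both strands.
PSMB3, chr17:38752591-38752740, plus strand: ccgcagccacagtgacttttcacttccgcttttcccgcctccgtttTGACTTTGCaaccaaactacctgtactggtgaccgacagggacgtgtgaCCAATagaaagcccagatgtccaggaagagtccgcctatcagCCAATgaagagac
PSMC2, chr7:103347493-103347642, plus strand: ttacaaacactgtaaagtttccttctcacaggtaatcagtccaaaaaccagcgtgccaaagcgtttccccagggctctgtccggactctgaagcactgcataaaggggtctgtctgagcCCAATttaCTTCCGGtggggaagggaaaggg
PSMD1, chr2:231056717-231056866, plus strand: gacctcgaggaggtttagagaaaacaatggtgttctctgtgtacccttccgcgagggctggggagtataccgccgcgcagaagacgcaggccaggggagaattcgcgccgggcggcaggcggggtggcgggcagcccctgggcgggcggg
PSMD14, chr2:161308275-161308424, plus strand: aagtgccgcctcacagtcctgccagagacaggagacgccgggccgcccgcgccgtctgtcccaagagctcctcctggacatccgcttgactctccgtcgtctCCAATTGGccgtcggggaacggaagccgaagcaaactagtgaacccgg
PSMD5, chr9:120842923-120843072, minus strand: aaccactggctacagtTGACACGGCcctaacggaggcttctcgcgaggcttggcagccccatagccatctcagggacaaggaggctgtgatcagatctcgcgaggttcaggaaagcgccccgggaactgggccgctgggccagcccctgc
PSMB3 holds TGACNNNGC and a pair of CCAAT boxes, PSMC2 holds CCAAT and, on the other strand, CCGGAAG, and PSMD14 holds CCAAT on both strands with 2 bases shared. PSMD5, which was lower, holds TGACNNNGC too, and PSMD1 holds none of the 3 motifs in these letters. Over the 37 genes TGACNNNGC was present in 24.3% and CCGGAAG in 27% of genes, against 9.95% and 11.4% of 15843 coding genes with a window of this length. CCAAT was present in 29.7% against 31.5%. GGGCGG and CACGTG, counted too but not marked, were present in 64.9% and 5.41%, against 56% and 7.21%. A match of letters is not a bound site.

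The alpha ring forms the gate of the 20S core. Its 7 genes summed to 1718 and 1666 TPM in siNT, 1611 and 1934 in siHOXA-AS3, and 1895 and 1942 in siHOXB-AS3. The siHOXB-AS3 mean was 13.4% above siNT, and the siHOXA-AS3 libraries lay on both sides of siNT, the higher of them between the siHOXB-AS3 libraries. All 7 log2 fold changes after HOXB-AS3 KD were above 0, from 0.06 in PSMA7 to 0.44 in PSMA3. In log2 CPM 6 of the 7 genes had both libraries above both siNT libraries, where 30.9% of all genes did. In TPM PSMA3, PSMA4 and PSMA5 overlapped with siNT too. By level in siNT, PSMA1 was the highest at 574 TPM and PSMA5 the lowest at 108 TPM. PSMA1, which weighs most in the sum, stood at 599 and 549 TPM in siNT and 704 and 702 in siHOXB-AS3. PSMA7 ran opposite to the others between the siHOXA-AS3 libraries, at 652 TPM in replicate 1 and 397 in replicate 2, with 443 and 537 in siNT and 503 and 455 in siHOXB-AS3.

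The beta ring carries the active sites. Its 7 genes summed to 2247 and 2325 TPM in siNT, 2123 and 2121 in siHOXA-AS3, and 2537 and 2588 in siHOXB-AS3, without overlap between any of the groups. The siHOXB-AS3 mean was 12.1% above and the siHOXA-AS3 mean at a difference of -7.17% (exact permutation p = 0.333 for each). Both differences rest largely on PSMB3, a noncatalytic subunit and the gene with the highest level of the 43. PSMB3 stood at 806 and 890 TPM in siNT, 748 and 620 in siHOXA-AS3, and 1062 and 1120 in siHOXB-AS3. Its groups did not overlap, with siHOXB-AS3 the highest and siHOXA-AS3 the lowest. The log2 fold change of PSMB3 was 0.46 (SE 0.176, adjusted p = 0.360 in edgeR) after HOXB-AS3 KD and -0.33 (SE 0.176, adjusted p = 0.881) after HOXA-AS3 KD. In the 4-library fit the former was 0.45 (adjusted p = 0.00125 in edgeR). PSMB3 has 1 annotated pseudogene copy, which could share reads with it. The expected counts of PSMB3 were whole in all 6 libraries.

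The 3 catalytic subunits had log2 fold changes from -0.01 to 0.27 after HOXB-AS3 KD. PSMB7 stood at 221 and 229 TPM in siNT, 209 and 233 in siHOXA-AS3, and 263 and 248 in siHOXB-AS3, so that both siHOXB-AS3 libraries were the highest. The log2 fold change of PSMB7 was 0.27 (SE 0.150, adjusted p = 0.542 in edgeR, and 0.0395 in the 4-library fit). PSMB5, the target of bortezomib, stood at 57.3 and 60.5 TPM in siNT, 56.6 and 55.8 in siHOXA-AS3, and 60.1 and 61.7 in siHOXB-AS3. The siNT and siHOXB-AS3 libraries of PSMB5 overlapped in TPM and did not in log2 CPM, with a log2 fold change of 0.13 (SE 0.184, adjusted p = 0.846 in edgeR). PSMB6 was the lowest gene of the ring, at 54.4 and 54.8 TPM in siNT, 59.8 and 52.6 in siHOXA-AS3, and 47.5 and 53.8 in siHOXB-AS3. The siHOXA-AS3 libraries of PSMB6 lay on both sides of siNT, and its log2 fold change after HOXB-AS3 KD was -0.01 (SE 0.197, adjusted p = 0.990 in edgeR). PSMB1 was the other gene of the ring below 0, at -0.20, with both siHOXB-AS3 libraries below both siNT libraries.

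The immunoproteasome subunits that can replace the catalytic ones, and that interferon induces, stood lower than their constitutive counterparts in every library. PSMB8, which replaces PSMB5, stood at 12.1 and 13.0 TPM in siNT, 11.2 and 7.76 in siHOXA-AS3, and 9.72 and 5.83 in siHOXB-AS3. PSMB10, which replaces PSMB7, stood at 28.98 and 33.1 TPM in siNT, 27.1 and 12.2 in siHOXA-AS3, and 24.1 and 19.9 in siHOXB-AS3. For both genes every KD library lay below both siNT libraries. The ratio of PSMB5 to PSMB8 was 4.72 and 4.66 in siNT, 5.07 and 7.19 in siHOXA-AS3, and 6.18 and 10.6 in siHOXB-AS3. PSMB9, which replaces PSMB6, had 3 to 17 counts per library, too few for a ratio. The log2 fold changes after HOXB-AS3 KD were -0.59 for PSMB8 (SE 0.332, adjusted p = 0.553 in edgeR), -0.56 for PSMB9 (SE 0.703, adjusted p = 0.818) and -0.40 for PSMB10 (SE 0.390, adjusted p = 0.747). None of the 3 was called in the 4-library fit, and PSMB11 and PSMA8 had 0 counts in every library.

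**Figure D3:**
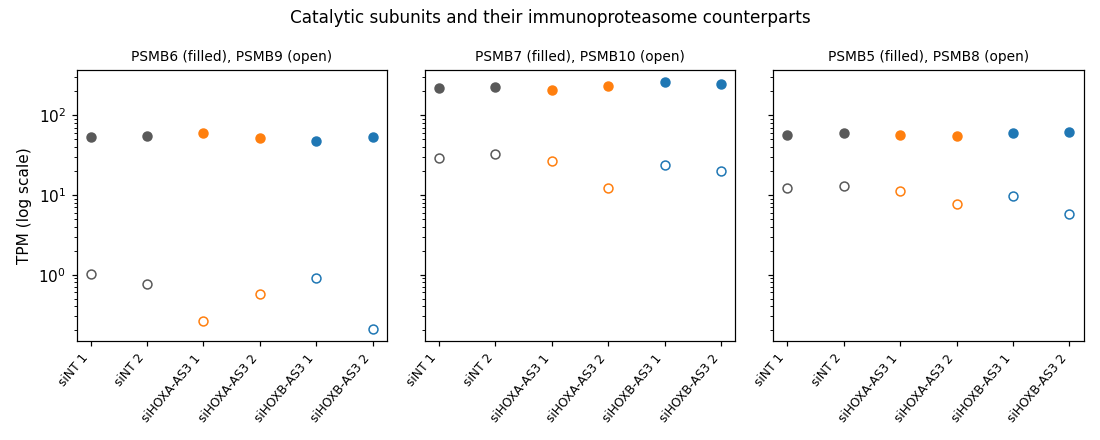
TPM (vertical axis, log scale) of the 3 catalytic subunits (filled) and the immunoproteasome subunits that can replace them (open) in each of the 6 libraries (horizontal axis). PSMB5 stays between 55.8 and 61.7 TPM, while PSMB8 runs from 5.83 to 13.0 TPM.

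The 6 ATPases of the 19S base unfold substrates. They summed to 771 and 762 TPM in siNT, 660 and 717 in siHOXA-AS3, and 883 and 848 in siHOXB-AS3. The groups did not overlap, with the siHOXB-AS3 mean 13.0% above siNT and the siHOXA-AS3 mean at a difference of -10.2% (exact permutation p = 0.333 for each). After HOXB-AS3 KD 6 of the 6 genes had both libraries above both siNT libraries in log2 CPM, where 30.9% of all genes did. In TPM PSMC3 overlapped with siNT. The median log2 fold change of the 6 was 0.26. After HOXA-AS3 KD 5 of the 6 had a log2 fold change below 0, where 48.7% of all genes did. In log2 CPM PSMC1, PSMC2 and PSMC5 had both libraries below both siNT libraries, where 16.1% of all genes did. In TPM PSMC1 and PSMC5 overlapped with siNT. PSMC2, the highest of the ring, stood at 196 and 191 TPM in siNT, 146 and 164 in siHOXA-AS3, and 249.5 and 216.8 in siHOXB-AS3. The log2 fold change of PSMC2 was 0.42 after HOXB-AS3 KD (SE 0.159, adjusted p = 0.344 in edgeR, and 0.00169 in the 4-library fit) and -0.30 after HOXA-AS3 KD (SE 0.159, adjusted p = 0.885).

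PSMC1 had the lowest log2 fold change of the 43 genes after HOXA-AS3 KD, -0.37 (SE 0.225, adjusted p = 0.925 in edgeR). It stood at 124 and 107 TPM in siNT, 68.9 and 112 in siHOXA-AS3, and 130 and 138 in siHOXB-AS3. Only siHOXA-AS3 replicate 1 was far below siNT, and the groups overlapped in TPM though not in log2 CPM. Without that library the log2 fold change of PSMC1 was -0.10 (adjusted p = 0.569 in edgeR), and without replicate 2 it was -0.70 (adjusted p = 0.000404). PSMC1 has 13 annotated pseudogene copies and shares 4671 exonic bases with NRDE2 on the other strand, and no source used here says whether counting used strand, so its reads cannot be told from theirs with certainty. The expected counts of PSMC1 were whole in all 6 libraries. PSMC6, the lowest of the ring at 44.1 TPM in siNT, had a log2 fold change of 0.44 after HOXB-AS3 KD.

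The other 11 subunits of the 19S particle summed to 890 and 889 TPM in siNT, 883 and 899 in siHOXA-AS3, and 907 and 978 in siHOXB-AS3. The siHOXB-AS3 mean was 5.97% above siNT, and the siHOXA-AS3 libraries lay on both sides of siNT. Of the 11 genes 9 had a log2 fold change above 0 after HOXB-AS3 KD. In log2 CPM 7 of them had both libraries above both siNT libraries, where 30.9% of all genes did, and of these PSMD12 overlapped in TPM. PSMD1, the scaffold of the 19S base, had the largest, 0.57 (SE 0.202, adjusted p = 0.313 in edgeR, and 0.000681 in the 4-library fit). It stood at 31.7 and 35.02 TPM in siNT, 27.3 and 37.7 in siHOXA-AS3, and 42.8 and 49.6 in siHOXB-AS3, so both siHOXB-AS3 libraries were above the other 4. PSMD1 shares 559 exonic bases with HTR2B on the other strand.

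PSMD14, the metalloprotease that cuts ubiquitin chains from substrates, stood at 112 and 96.7 TPM in siNT, 73.4 and 139 in siHOXA-AS3, and 133 and 145 in siHOXB-AS3. The siHOXA-AS3 libraries spanned siNT in both directions. Its log2 fold change after HOXB-AS3 KD was 0.51 (SE 0.270, adjusted p = 0.528 in edgeR, and 0.000686 in the 4-library fit), and it was 0.00 after HOXA-AS3 KD. PSMD6 was higher after HOXA-AS3 KD, at 47.0 and 46.1 TPM in siNT, 53.8 and 62.4 in siHOXA-AS3, and 50.2 and 47.6 in siHOXB-AS3. The siHOXA-AS3 libraries of PSMD6 were the highest of the 6, with a log2 fold change of 0.29 (SE 0.173, adjusted p = 0.916 in edgeR). PSMD6 shares 441 exonic bases with PSMD6-AS1 and 352 with PSMD6-AS2 on the other strand, and PSMD14 shares 159 with AC009299.3. PSMD6-AS1 and AC009299.3 have no row of their own. PSMD2, the partner of PSMD1 in the base, was lower after HOXB-AS3 KD, with a log2 fold change of -0.35, and fell in the 4-library fit (adjusted p = 0.0142 in edgeR). The subunit with the highest level in siNT was PSMD8, at 202 TPM, and the one with the lowest was PSMD12, at 25.9 TPM.

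**Figure D4:**
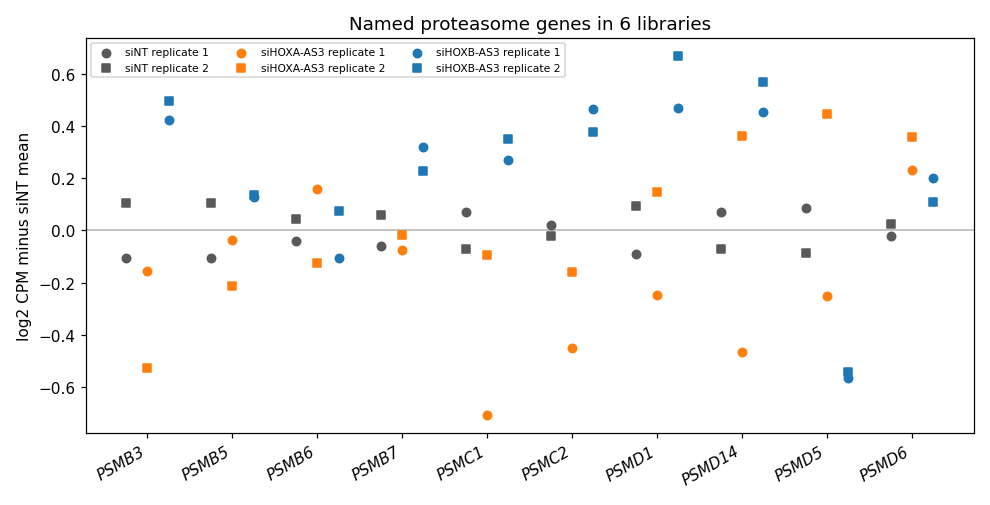
Log2 CPM of 10 named proteasome genes minus their siNT mean (vertical axis, log2 units), for each of the 6 libraries, with circles for replicate 1 and squares for replicate 2. PSMB3, PSMC2 and PSMD1 have both siHOXB-AS3 points above both siNT points, PSMD5 has both below, and PSMC1 and PSMD14 have widely separated siHOXA-AS3 points.

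Of the 3 chaperones of 19S assembly, in log2 CPM, PSMD5 lay below siNT in both siHOXB-AS3 libraries, PSMD10 lay above it and PSMD9 overlapped with it. PSMD5, PSMD9 and PSMD10, which join ATPases into the 19S base and then leave it, summed to 132 and 120 TPM in siNT, 93.4 and 152 in siHOXA-AS3, and 111 and 106 in siHOXB-AS3. Their sum was lower in each siHOXB-AS3 library than in either siNT library, with a difference of -13.8% in the mean, and the siHOXA-AS3 libraries held the lowest and the highest sum. PSMD5 was the lowest of the 43 genes after HOXB-AS3 KD, with a log2 fold change of -0.55 (SE 0.247, adjusted p = 0.449 in edgeR, and 0.000603 in the 4-library fit). It stood at 44.9 and 38.1 TPM in siNT, 33.8 and 58.3 in siHOXA-AS3, and 26.1 and 26.8 in siHOXB-AS3, where both libraries were below all others. PSMD10 had a log2 fold change of 0.11 and PSMD9, the lowest gene of the 43 at 14.3 TPM in siNT, one of -0.24.

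The chaperones of 20S assembly, PSMG1 to PSMG4, summed to 394 and 388 TPM in siNT, 314 and 449 in siHOXA-AS3, and 412 and 387 in siHOXB-AS3, with overlap between the groups. PSMG2 was the highest at 284 TPM in siNT and PSMG1 the lowest at 23.3 TPM. PSMG1 had a log2 fold change of 0.44 after HOXB-AS3 KD, and PSMG3 one of -0.28. The activators PSME1 to PSME4 and the inhibitor PSMF1 summed to 655 and 680 TPM in siNT, 676 and 602 in siHOXA-AS3, and 655 and 630 in siHOXB-AS3. Here the groups overlapped too. PSME4, the nuclear activator PA200, had a log2 fold change of 0.40, PSMF1 one of -0.20, and PSME1, the highest of these genes at 272 TPM, one of 0.00.

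**Figure D5:**
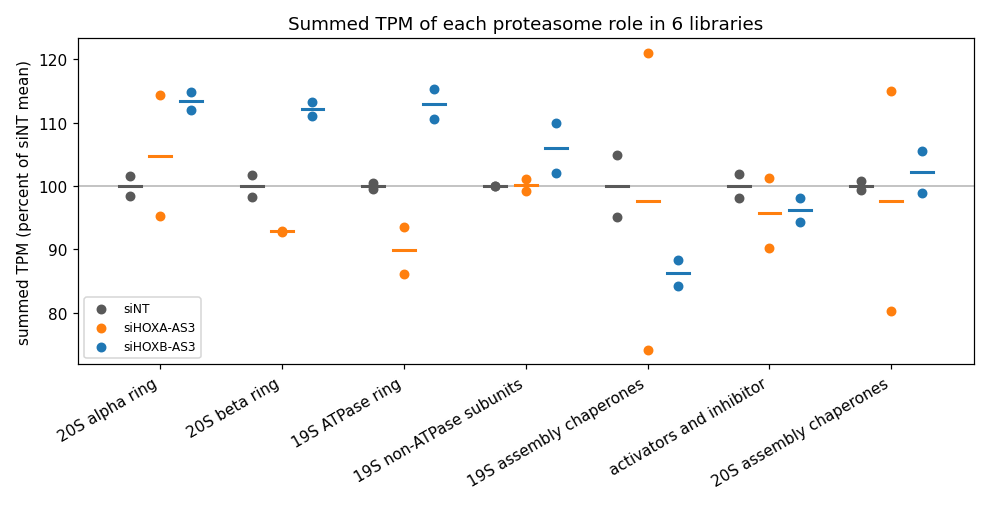
Summed TPM of the genes of each role, as a percent of the siNT mean (vertical axis), for the 2 libraries of each group (points) and their mean (short lines). Both siHOXB-AS3 points of the 4 subunit roles lie above both siNT points, by 13.4%, 12.1%, 13.0% and 5.97% in the mean, those of the 19S assembly chaperones lie below, and the siHOXA-AS3 points of both chaperone groups are far apart.

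After HOXA-AS3 KD the proteasome genes showed no common direction. Of the 43 genes 19 had a log2 fold change above 0 and 24 below, with a median of -0.04 against 0.01 over all genes. The range was from -0.37 in PSMC1 to 0.29 in PSMD6. edgeR called 0 of the 43, as it did 0% of all genes. DESeq2 called 0, against 0.277% of the 17680 unfiltered genes, and limma 0, against 0.00767% of the 13034. Of the 43, 0 had an unadjusted p under 0.05 in edgeR, DESeq2 or limma, against 2.75% of all genes that were higher and 3.41% that were lower at that p in edgeR. In log2 CPM, both siHOXA-AS3 libraries lay above both siNT libraries for 2 genes, 4.65% against 12.5% of all genes, and below for 7, 16.3% against 16.1%. The siHOXA-AS3 libraries, taken singly, gave different pictures. Without replicate 1 the fit called 8 genes higher, 18.6% against 15% of all genes, and 6 lower, 14% against 15.3%. Without replicate 2 it called 1 higher, 2.33% against 7.91%, and 11 lower, 25.6% against 9.95%. PSMA3, PSMA4, PSMA6, PSMD12 and PSMD14 were called in both of these fits, higher in the former and lower in the latter, and PSMA7 the other way round.

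Most proteasome genes stood higher in siHOXB-AS3 than in siHOXA-AS3 too. This comparison shares its siHOXB-AS3 libraries with the one against siNT. Of the 43 genes 34 had a log2 fold change above 0 in siHOXB-AS3 minus siHOXA-AS3 and 9 below, with a median of 0.21 against -0.01 over all genes. edgeR called 0 of the 43, against 1.57% of all genes. DESeq2 called 2, PSMB3 and PSMC2 (7 of the 43 had an unadjusted p under 0.05). The 2 are 4.65%, against 4.37% of 17680 genes that were not filtered on low counts, so the shares cover unlike sets. Limma called 0, against 0.714% of the 13034 genes (5 of the 43 at that p). In edgeR 4 genes were higher at an unadjusted p under 0.05, PSMB3, PSMC1, PSMC2 and PSMD1, which is 9.3% against 7.9% of all genes, and 1 was lower, PSMD5, 2.33% against 10.5%. In log2 CPM, both siHOXB-AS3 libraries lay above both siHOXA-AS3 libraries for 18 genes, 41.9% against 22.8% of all genes, and below for 3, 6.98% against 22.5%. PSMB3 had the largest difference, with a log2 fold change of 0.79 (SE 0.177, adjusted p = 0.0867 in edgeR), followed by PSMC2 at 0.72 (SE 0.160, adjusted p = 0.0832). PSMD5 was at -0.69 (SE 0.248, adjusted p = 0.208 in edgeR) and PSMC1 at 0.68 (SE 0.226, adjusted p = 0.180). By role, the ATPases had the largest median, 0.49, and the 19S assembly chaperones the lowest, -0.30. Without siHOXA-AS3 replicate 1 the fit called 13 genes higher, 30.2% against 19.4% of all genes, and 3 lower, 6.98% against 18.4%. Without replicate 2 it called 19 higher, 44.2% against 18.6%, and 4 lower, 9.3% against 17.4%. PSMB3, PSMC1, PSMC2 and PSMD1 were called higher in both fits, while PSMA6 and PSMA7 were called in opposite directions. PSMD5 was called lower without replicate 1 and was at -0.31 without replicate 2 (adjusted p = 0.0642 in edgeR).

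Genes that work with the proteasome outside the symbol rule were read from lists, of which edgeR called 0 genes after either KD. The 12 partners include the 19S subunit SEM1, the ubiquitin receptor ADRM1 and the deubiquitinases USP14 and UCHL5. Of the 12, 10 had a log2 fold change above 0 after HOXB-AS3 KD, with a median of 0.15. In log2 CPM 7 had both libraries above both siNT libraries, against 30.9% of all genes. Of these AKIRIN2, ECPAS, PAAF1 and PSME3IP1 overlapped with siNT in TPM. The largest was POMP, the chaperone of 20S maturation, at 80.6 and 65.2 TPM in siNT, 56.3 and 137 in siHOXA-AS3, and 90.0 and 109 in siHOXB-AS3. The siHOXA-AS3 libraries of POMP spanned the others, and its log2 fold change after HOXB-AS3 KD was 0.54 (SE 0.366, adjusted p = 0.621 in edgeR). After HOXA-AS3 KD 5 of the 12 were above 0, and the largest change was that of PSME3IP1, a partner of PSME3, at -0.53 (SE 0.200, adjusted p = 0.736 in edgeR).

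Of 10 regulators of proteasome transcription, 5 were above 0 after KD of HOXB-AS3 (median 0.06), and 7 of the 10 were after KD of HOXA-AS3 (median 0.09). NFE2L1 stood at 29.8 and 33.3 TPM in siNT, 38.8 and 29.3 in siHOXA-AS3, and 27.2 and 28.98 in siHOXB-AS3. Its log2 fold change after HOXB-AS3 KD was -0.08 (SE 0.209, adjusted p = 0.933 in edgeR). NFE2L2, its relative, was higher in each KD library than in both siNT libraries, with log2 fold changes of 0.36 after HOXA-AS3 KD (SE 0.171, adjusted p = 0.862 in edgeR) and 0.40 after HOXB-AS3 KD (SE 0.171, adjusted p = 0.416). The largest value in the list after HOXB-AS3 KD was that of MAFF, a small MAF protein, at 0.88 (SE 0.336, adjusted p = 0.352 in edgeR), from 5.82 and 7.22 TPM in siNT to 9.72 and 12.9 in siHOXB-AS3.

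Of 15 ubiquitin and shuttle genes, 13 were above 0 after KD of HOXB-AS3 (median 0.15), and 11 of the 15 were after KD of HOXA-AS3 (median 0.09). RAD23B, a shuttle that brings ubiquitinated proteins to the proteasome, went the other way, from 91.2 and 81.8 TPM in siNT to 52.6 and 52.7 in siHOXB-AS3, with 77.5 and 89.3 in siHOXA-AS3. Its log2 fold change after HOXB-AS3 KD was -0.62 (SE 0.145, adjusted p = 0.158 in edgeR). SQSTM1, the autophagy receptor p62, was the largest after HOXA-AS3 KD, at 0.35 (SE 0.246, adjusted p = 0.961 in edgeR).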

How the data were processed

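RNA of 6 HT-29 libraries was prepared with the SENSE mRNA-Seq kit and quantified by the authors with RSEM on RefSeq genes (hg19, per the labels). Aligner, RSEM version and strand setting were not given in the sources used here. The deposited tables hold expected counts, TPM and FPKM per gene, as the authors made them without pooling. Rows that join several genes (627, holding 6.02 to 6.62% of counts) hold no proteasome gene, and those lacking a symbol took 0.0474% of counts or less. Of the 43 genes, 39 had whole expected counts in every library (within 0.005), while 4 did not, which marks reads that RSEM split.

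Expected counts were rounded, genes kept by filterByExpr (minimum count 10), and all 6 libraries fitted with edgeR 4.0.16 (robust quasi-likelihood test, TMM, Benjamini-Hochberg adjustment over 13034 genes, threshold 0.05) in R 4.3.3. Standard errors were derived from the fold change and F. Log2 CPM used a prior count of 2. Mean log2 CPM and summed TPM were compared by exact permutation tests. Alternatives used DESeq2 1.42.0, limma 3.58.1 on log2(FPKM + 0.1), other scalings and filters, a loess trend on GC content (GENCODE transcripts), a replicate block and each library left out. The edgeR and DESeq2 fits were run on simulated counts with known changes, an equal spread in every library and no GC trend. That setting does not cover the spread of the siHOXA-AS3 libraries. No 2 libraries held the same counts within sampling noise.

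The genes and lists were chosen with earlier results of these data known. The genes named are PSMB5, PSMB6 and PSMB7, the 4 with the largest fold change in each comparison, those past the threshold, the highest and lowest level of each role, and from the other lists PSMB8, PSMB9, PSMB10, NFE2L1, those past the threshold and the largest change in each KD. Others are named after their values were seen. The lists held proteasome partners, regulators of proteasome transcription, ubiquitin and shuttle genes, the COP9 signalosome, the CCT chaperonin, and colon, fibroblast and leukocyte markers. One marker of the leukocyte list is not reported here.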

Additional observations from a re-analysis of the deposited data

How the results depend on the processing

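Counts of called proteasome genes depended on which libraries set the spread. For HOXB-AS3 KD against siNT the count of 0 became 18 with only the groups compared, 7 with the GC trend removed and 26 with both (a setting chosen after seeing the data), and ranged from 0 to 18 when each library was left out, with 18 when either siHOXA-AS3 library was left out and 0 otherwise. For siHOXB-AS3 against siHOXA-AS3 it became 2 with DESeq2, 2 without a filter, 11 with the GC trend removed and 7 with the GC trend removed in the groups compared, and ranged from 0 to 23 when each library was left out. For HOXA-AS3 KD it ranged from 0 to 14 when each library was left out, and its median log2 fold change from -0.13 to -0.0044, its mean log2 CPM difference from -0.12 to 0.0066 and its summed TPM difference from -6.72 to 0.83%. A library left alone in its group was assumed to vary like the others. Over all genes, the GC trend removed gave 572, 1821 and 3406 calls in the 3 comparisons against 0, 8 and 204.

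The replicate numbers are shared between groups, and the labels name no batch. Deviations of same-numbered libraries correlated at -0.347 (siNT and siHOXA-AS3), -0.139 (siNT and siHOXB-AS3) and 0.150 (siHOXA-AS3 and siHOXB-AS3). Same-numbered libraries thus did not deviate alike in every pair of groups. Whether the libraries fall into batches was not tested. With the replicate block 0 proteasome genes were called in each comparison, and the calls over all genes were 0, 0 and 10. A crossed block, with the siNT numbers swapped and chosen after seeing the data, called 0, 0 and 2 proteasome genes. Its calls over all genes were 14, 225 and 758 of 13034.

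PSMD14 after HOXA-AS3 KD, near 0, was at -0.014 without TMM, -0.041 with the replicate block, -0.038 with the crossed one, -0.059 in limma, -0.053 with the GC trend removed and -0.052 with that in the groups compared, and from -0.46 to 0.36 with each library left out. PSMB6 after HOXB-AS3 KD was at 0.030 with the GC trend removed and 0.026 with that in the groups compared, and from -0.10 to 0.075 with each library left out. Leaving out each library moved HOXA-AS3 KD values of PSMB6 from -0.13 to 0.17, of PSMB7 from -0.10 to 0.0099, of PSMD1 from -0.24 to 0.15 and of PSMD5 from -0.25 to 0.44, and PSMB6 between the KD groups from -0.18 to 0.12. Of 540 values of named genes under an alternative, 520 kept their sign. The causes were not tested. No proteasome gene had under 247 expected counts in a library, while PSMB9 had 3 to 17.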

Other observations

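2 other large complexes of the cytosol showed values near those of the proteasome subunits after HOXB-AS3 KD. The CCT chaperonin folds actin and tubulin in a double ring of 8 related subunits. Its 8 genes summed to 994 to 1053 TPM in siNT, 925 to 1154 in siHOXA-AS3 and 1166 to 1204 in siHOXB-AS3. All 8 genes had both siHOXB-AS3 libraries above both siNT libraries in log2 CPM, where 30.9% of all genes did, and their median log2 fold change was 0.30. In TPM TCP1 overlapped with siNT. CCT6A and CCT3 had the largest, both 0.33 (SE 0.161 and 0.139, adjusted p = 0.484 and 0.394 in edgeR). CCT6A went from 171 and 157 TPM in siNT to 195 and 192 in siHOXB-AS3, with 144 and 192 in siHOXA-AS3. After HOXA-AS3 KD 5 of the 8 were above 0, with a median of 0.02, and CCT2 had the largest at 0.19 (SE 0.236, adjusted p = 0.997 in edgeR).

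The COP9 signalosome, a relative of the 19S lid that removes NEDD8 from cullin ubiquitin ligases, has 9 genes here. They summed to 574 to 590 TPM in siNT, 523 to 595 in siHOXA-AS3 and 614 to 631 in siHOXB-AS3. After HOXB-AS3 KD 8 of the 9 were above 0, with a median log2 fold change of 0.24. In log2 CPM 7 had both libraries above both siNT libraries, where 30.9% of all genes did, and of these COPS2 and COPS3 overlapped in TPM. COPS4 had the largest in each KD, 0.37 after HOXB-AS3 KD (SE 0.271, adjusted p = 0.654 in edgeR) and -0.22 after HOXA-AS3 KD (SE 0.271, adjusted p = 0.997). After HOXA-AS3 KD 3 of the 9 were above 0, with a median of -0.08. edgeR called 0 genes of either complex in these comparisons. Whether these complexes differ from the proteasome subunits was not tested.

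Among the markers, the largest values after HOXA-AS3 KD were those of CDX2, an intestinal transcription factor, at -1.08 (SE 0.576, adjusted p = 0.881 in edgeR), and CD14 at 0.44 (SE 0.406, adjusted p = 0.984 in edgeR). CD14 was at -0.56 after HOXB-AS3 KD (SE 0.426, adjusted p = 0.666 in edgeR). Both genes had few counts. CDX2 had 20 and 8 in siNT and 6 and 6 in siHOXA-AS3. For CD14 they were 36 and 14 in siNT, 43 and 21 in siHOXA-AS3, and 21 and 14 in siHOXB-AS3.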
